A study of Mus musculus with 21 samples.

Results

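The SR splicing factors were followed as 10 named genes, Srsf1, Srsf2, Srsf3, Srsf4, Srsf5, Srsf6, Srsf7, Srsf9, Srsf10 and Srsf11, out of 34369 genes to which a measured transcript could be assigned. They were named by family, with earlier results of these data known. SR proteins carry RNA recognition motifs and a domain rich in arginine and serine, bind exons and help the spliceosome to find weak splice sites. Several of them also limit their own amount through a poison exon, a cassette exon whose inclusion brings in a premature stop codon and exposes the transcript to nonsense-mediated decay. RBM10 is an X-linked RNA-binding protein that contacts pre-mRNA and is known mainly for promoting exon skipping.

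The md MEPA line comes from the mandibular part of pharyngeal arches of mouse embryos at 11.5 days post coitum, from CD1 females crossed with an Immortomouse male, whose transgene immortalises cells. All md cells, controls included, were grown at 33 °C with 100 U/ml murine interferon. iCLIP fixes a protein to the RNA it touches with UV light and reads off the nucleotide of contact. Here md cells received 400 mJ/cm2 at 254 nm. There were 4 libraries with an antibody against RBM10, each with its own rabbit IgG control. All RBM10 libraries shared 1 sequencing lane and all IgG libraries a different one, and an effect of the lane cannot be told apart from that of the antibody. RNA-seq of polyadenylated RNA covered 4 Rbm10 KO md lines made with CRISPR/Cas9, KO1 and KO2 deleted in exon 3 and KO3 and KO4 deleted in exon 9, against 3 samples of WT md cells. It also covered 3 samples of the male gene trap ES line Rbm10Gt(CSI176)Byg, which is 1 line, against 3 of its parental line E14Tg2a.4, all grown with LIF. The labels do not name separate cultures within a line. The p-values below therefore reflect only how far these samples differ among themselves, possibly for technical reasons.

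Rbm10 itself was checked first. Its TPM, a level scaled to transcript length and library total, was 23.2, 19.7, 7.20 and 3.49 in md KO1 to KO4 against 21.4, 23.2 and 23.7 in WT, and the groups overlapped (log2 difference -1.03, limma adjusted p = 0.762). KO1 and KO2 lay within or just under the WT range, and a level of the whole gene does not test for a deletion. In ES cells it was 4.27, 3.63 and 4.25 in the knockout against 32.5, 33.5 and 32.2 in the parental line (log2 difference -2.74, limma adjusted p = 6.69e-05). Cell type markers matched the labels in part. The summed TPM of 10 arch mesenchyme markers was 1327 to 1609 in WT md cells and 683 to 2390 in the knockouts, with 6 of the 10 at a mean of 1 TPM or more and Msx2 and Hand2 listed at 0 in every md library. The 4 endothelial markers were at 0 in every md library. The summed TPM of 8 pluripotency markers was 4429 to 5300 in parental ES cells and 4250 to 4709 in the knockout, and in md cells at most 54.2. Libraries held 774816 to 2847066 crosslinks for RBM10 and 103017 to 2214515 for IgG, of which 0.152 to 0.203% and 0.0741 to 0.120% lay on the same strand along the 10 genes. The shallow controls are IgG replicates 3 and 4, with 124 and 117 crosslinks over the whole family. The RNA tables give TPM only, so the depth of those libraries is unknown.

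Crosslinks along whole genes differed between members, from Srsf3, with the most RBM10 signal relative to its control, to Srsf6, with the least. By edgeR's quasi-likelihood test with Benjamini-Hochberg adjustment over 9284 genes, 4 of the 10 members were higher in RBM10 (Srsf3, Srsf5, Srsf7 and Srsf11) and 1 was lower (Srsf6), where 20.4% of all genes were called higher and 17.0% lower. Either way it was 5 of 10 against 37.4% of all genes, and 6 of 10 had an unadjusted p under 0.05 against 48.9%. The fit did not use the replicate pairs, and with the pair as a block the Srsf5 call was lost. Crosslinks scaled to the library total (CPM) did not overlap between the groups in 5 members with RBM10 above IgG (30.1% of all genes) and in 1 with RBM10 below (8.77% of all genes). The members' median log2 difference was 0.54, and that of all genes was 0.05.

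Srsf3, the smallest SR protein, and Srsf7, its relative with a zinc knuckle, both link splicing to mRNA export. They had the largest differences of the 10. Srsf3 held 279.9, 255.7, 407 and 312 CPM in the RBM10 libraries and 94.3, 69.99, 38.8 and 38.0 in the IgG libraries. Every RBM10 library was above every control (log2 difference 1.90, SE 0.24, edgeR adjusted p = 0.000308). Srsf7 held 155, 129, 214 and 155 CPM against 64.2, 59.2, 38.8 and 69.6, again without overlap (log2 difference 1.16, SE 0.21, edgeR adjusted p = 0.00166). Srsf11, a more distant member that works near the 3' splice site, held 270.0, 272, 325 and 285 against 143, 159, 165 and 146 CPM (log2 difference 0.65, SE 0.16, edgeR adjusted p = 0.00751).

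Srsf5, which has a pair of RNA recognition motifs, held 68.2, 76.6, 111 and 98.1 CPM against 51.8, 45.6, 58.2 and 31.6. Its groups did not overlap (log2 difference 0.64, SE 0.23, edgeR adjusted p = 0.0388), but the call was lost with the replicate pair as a block (adjusted p = 0.116). It was also lost when each position was counted once (0.179) or when RBM10 replicate 3, RBM10 replicate 4, IgG replicate 1 or IgG replicate 2 was left out (0.111, 0.0678, 0.0787 and 0.145). Srsf6, of the same structural group, went the other way, with 89.7, 88.5, 76.3 and 54.2 CPM for RBM10 and 105, 121, 107 and 120 for IgG. All of its RBM10 libraries lay below all controls (log2 difference -0.81, SE 0.20, edgeR adjusted p = 0.00873), a call lost only without IgG replicate 2 (adjusted p = 0.0521).

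The other 5 members did not pass the test, which does not show a like amount in both groups: the RBM10 libraries of Srsf1 all lay above its controls. Srsf1, which strengthens 5' splice site choice, and Srsf2, a nuclear speckle protein, had log2 differences of 0.48 and 0.60 (edgeR adjusted p = 0.0907 and 0.104). Without TMM factors both passed (adjusted p = 0.0182 and 0.0310), and the median over all genes then rose from 0.05 to 0.32. Srsf2 also passed with pairs 1 and 2 alone (0.00105) and without IgG replicate 3 (0.0150). Srsf1 fell to a log2 difference of -0.02 when each position was counted once. Srsf4, the longest of the genes at 28109 bases, Srsf9, the close relative of Srsf1, and Srsf10, a splicing repressor when dephosphorylated, had log2 differences of -0.36, -0.39 and 0.08. Srsf4 was called lower with each position counted once (adjusted p = 0.0229), with pairs 1 and 2 alone (0.0158) and without IgG replicate 4 (0.0446).

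**Figure D1:**
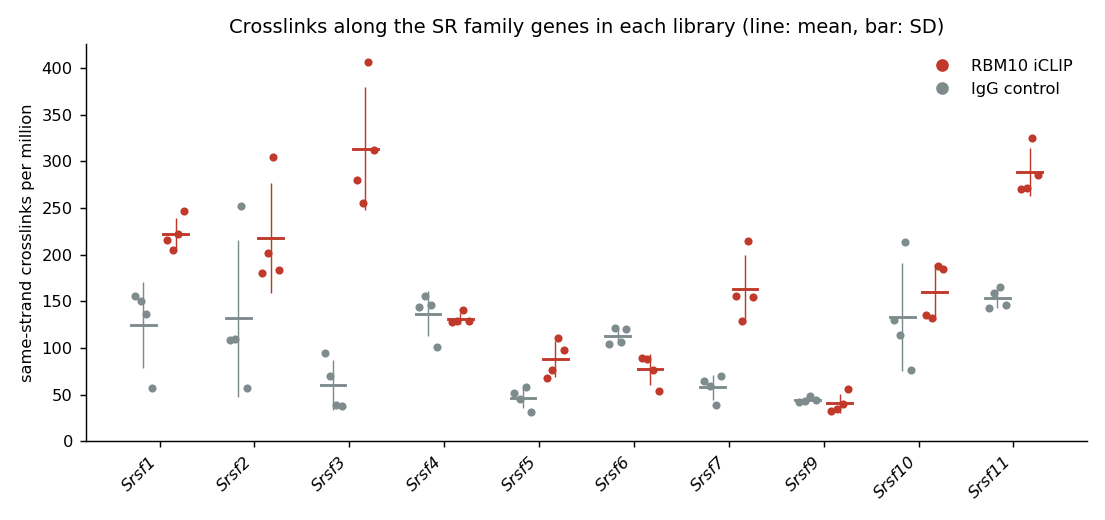
Same-strand crosslinks (CPM) along each of the 10 genes (y axis) in the 4 RBM10 libraries (red) and 4 IgG libraries (grey), with a line at the mean and a bar for the SD. The RBM10 points of Srsf3, between 255.7 and 407, all lie above its IgG points, which reach 94.3, while those of Srsf6 lie below.

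The position of the crosslinks within the genes differed more than their number. Each base was put in 1 of 4 classes: coding sequence of a protein-coding transcript, its other exonic sequence, exons found only in noncoding isoforms, and introns. Exons of noncoding isoforms are 9.21% of the family's bases. They held 35.0, 32.9, 42.2 and 35.5% of the family's crosslinks in the RBM10 libraries and 12.97, 13.4, 18.5 and 9.40% in the controls. Coding sequence, at 8.77% of bases, held 5.11% ± 1.86 (SD, n = 4) for RBM10 and 12.4% ± 2.95 for IgG. Other exonic sequence of coding transcripts held 20.1% ± 3.28 and 32.9% ± 5.23. These 3 shares separated the groups completely (exact permutation test over 70 splits, p = 0.0286 each, the smallest it can give, adjusted p = 0.0408 over 10 shares). Each of them, and of the splice-site and base shares below that separated the groups, differed the same way in 4 of 4 pairs, but an exact permutation within the 4 pairs gives p = 0.125, the smallest it can give, so none of these shares would be called at 0.05 as paired data. Annotated introns held 38.3% ± 1.49 and 41.1% ± 6.98 (exact permutation p = 0.714). None of the family shares given here and below was taken over all genes, so none is shown to be particular to the family.

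Gene by gene, 26 of the family's 39 gene regions had enough crosslinks to be tested, and 7 were higher in RBM10 and 3 lower, against 30.5% and 15.7% of 13136 regions in all genes. Of the 7, 5 were exons of noncoding isoforms, out of 6 such regions tested: Srsf3 (log2 difference 3.41, SE 0.31), Srsf2 (2.19, SE 0.40), Srsf6 (1.86, SE 0.56), Srsf11 (1.72, SE 0.33) and Srsf5 (1.23, SE 0.32). Over all genes 57.7% of 1423 such regions were higher, so most genes' noncoding exons shared this direction. The other two were the introns of Srsf1 (2.54, SE 0.51) and Srsf7 (2.02, SE 0.31), where 39.4% of all intron regions were higher. Adjusted p-values of the 7 (edgeR's quasi-likelihood test) ran from 1.43e-06 for Srsf3 to 0.0120 for Srsf6. The call for Srsf6 was lost without IgG replicate 1 or IgG replicate 2 (adjusted p = 0.0736 and 0.0664). The filter asked for a minimum level in 4 libraries. Exons of Srsf6 noncoding isoforms (IgG 4.14, 4.97, 0 and 0 CPM) and introns of Srsf1 (IgG 5.18, 7.23, 0 and 0 CPM) reached it through the RBM10 libraries alone. So did exons of Srsf2 noncoding isoforms (IgG 24.9, 32.5, 87.4 and 6.33 CPM), where IgG replicate 4 fell short. The calls of these regions therefore do not support a difference.

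Lower in RBM10 were the coding sequence of Srsf6 (log2 difference -1.33, edgeR adjusted p = 0.0174), its other exonic sequence (-1.56, 0.005997) and the coding sequence of Srsf2 (-1.14, 0.0463). The Srsf2 call was lost under the block (adjusted p = 0.0899) and without any of RBM10 replicates 1, 3 and 4 or IgG replicates 1, 2 and 3. That of the Srsf6 coding sequence was lost without IgG replicate 2 (adjusted p = 0.0542) or when every region with at least 10 crosslinks was tested (0.0575). All 3 regions reached the filter's minimum through the IgG libraries alone, the group where they were high, so these calls too are a description. The values of Srsf6 by region were as follows. Exons of its noncoding isoforms held 15.2, 10.9, 19.0 and 16.8 CPM for RBM10 and 4.14, 4.97, 0 and 0 for IgG. Its coding sequence held 14.4, 12.6, 8.79 and 10.3 against 19.7, 28.9, 29.1 and 44.3, with no overlap in either direction. None of the 5 coding regions tested was higher in RBM10 and 2 were lower, where 1.57% of coding regions in all genes were higher and 27.4% lower. For other exonic sequence 40.9% in all genes were lower.

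The genome holds part of the family's exonic sequence more than once. Of 30-base words starting in coding sequence, 76.2% in Srsf3, 72.3% in Srsf10 and 56.2% in Srsf5 occur elsewhere in the mm9 genome, and the handling of such reads is not given in the sources used here. Srsf3 and Srsf10 had 5 and 3 RBM10 crosslinks in all in their coding sequence. The windows described next hold 0 to 2% such words.

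**Figure D2:**
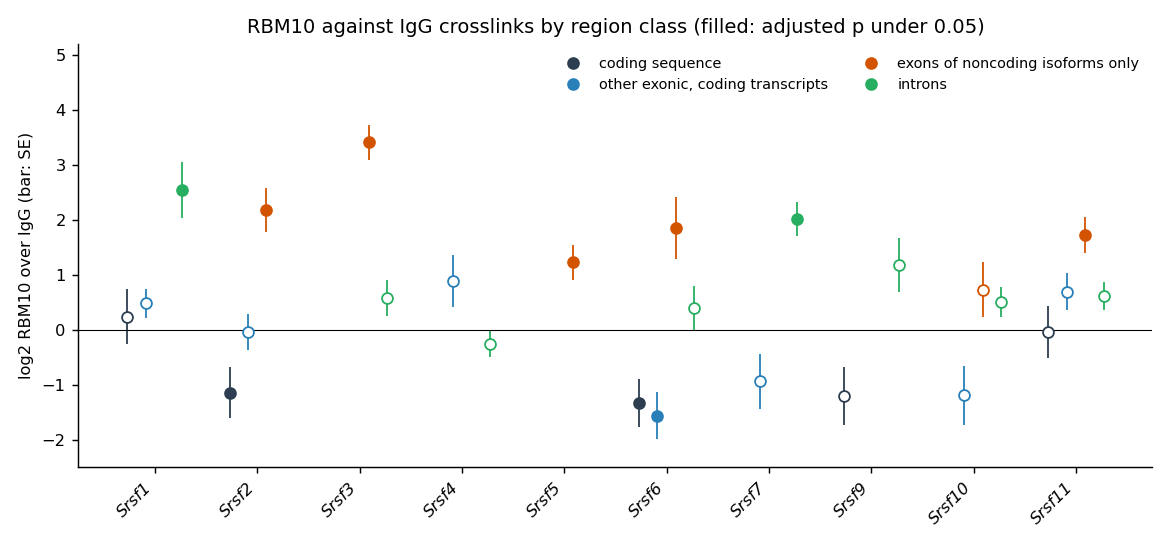
Log2 difference of RBM10 over IgG crosslinks (y axis, bars are SE) for each region class of each gene that had enough crosslinks to be tested, filled where the adjusted p is under 0.05. Exons of noncoding isoforms lie above 0 in all 6 genes tested, while the 3 filled points below 0 are coding or other exonic sequence of Srsf2 and Srsf6.

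The signal was then traced to splice sites, in windows of 100 nt of intron upstream of each 3' splice site and downstream of each 5' splice site. These are introns of coding transcripts, and a window can be exonic in another transcript. This view was added after the values by region were seen. The 3' windows are 5.43% of the family's bases and held 28.6, 24.3, 36.1 and 34.8% of its RBM10 crosslinks against 5.29, 4.66, 12.1 and 6.84% of its IgG crosslinks. The 5' windows, of the same total length, held 7.60% ± 0.833 (SD, n = 4) and 4.17% ± 0.5004. Both separated the groups completely (exact permutation p = 0.0286, adjusted p = 0.0408). In the edgeR test across all windows, 30 of 52 member windows at 3' splice sites and 10 of 36 at 5' splice sites were higher in RBM10 and 0 were lower. Windows needed at least 10 crosslinks over all libraries, a minimum that the RBM10 counts alone reached in 48 of the 52 and 34 of the 36, and the IgG counts alone in 5 and 4. The filter thus kept mainly windows high in RBM10, and neither these counts nor the lack of lower calls supports a difference. In all genes 66.5% of 36368 windows at 3' splice sites and 54.3% of 19239 at 5' splice sites were higher and 0.239% and 0.494% lower, so the members do not exceed that background. With replicate pairs 1 and 2 alone no window of any gene was called, and 22 of 52 and 6 of 36 member windows had an unadjusted p under 0.05. Over all genes it was 15554 of 36254 and 6194 of 19179 windows. Without IgG replicate 2, 14 of 52 and 3 of 36 member windows were called, beside 13.6% and 6.93% of all windows called higher. At 5' splice sites 6 of 36 were called without RBM10 replicate 3 or without IgG replicate 1, beside 37.8% and 31.8% of all windows.

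In 9 members the most crosslinked window lay upstream of a 3' splice site, and in Srsf11 it lay downstream of a 5' splice site. These windows were picked for their RBM10 counts, so their values are a description. The one of Srsf3, at chr17:29177620-29177719, held 123, 219, 414 and 65 RBM10 crosslinks and 4, 3, 0 and 0 IgG crosslinks. It took 33.6% of the gene's RBM10 crosslinks on 0.935% of its length. The window of Srsf7, at chr17:80602085-80602184, held 74, 152, 295 and 63 against 0, 2, 0 and 0, which is 46.0% of the gene's RBM10 crosslinks. Scaled to library totals, the pooled RBM10 to IgG ratio was 53.2 (95% exact interval 25.7 to 133) in Srsf3 and 132 (36.5 to 1097) in Srsf7. Such intervals cover counting error only, and reads without a stated use of molecular barcodes are not independent molecules.

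Srsf10 and Srsf2 followed. Srsf10 as a whole was not called (log2 difference 0.08, SE 0.23). Its window, at chr4:135417589-135417688, held 28, 87, 195 and 39 RBM10 crosslinks against 4, 0, 0 and 0 in IgG, or 29.0% of the gene's RBM10 crosslinks. That of Srsf2, at chr11:116712276-116712375, held 35, 68, 166 and 23 against 0, 2, 0 and 0. The most crosslinked window of Srsf1, at chr11:87862814-87862913, precedes a cassette exon of 187 bases and held 42, 74, 153 and 62 against 4, 5, 2 and 0. The Srsf11 window, at chr3:157689589-157689688, held 24, 56, 70 and 15 against 4, 3, 0 and 0. The leading windows of Srsf4, Srsf5, Srsf6 and Srsf9 held 56, 123, 82 and 60 RBM10 crosslinks in all against 1, 5, 1 and 4 for IgG.

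Set against the poison exons, the windows had a shared place in 3 genes. In Srsf3 the window and the poison exon (chr17:29176399-29176854) lie in the same intron of the coding transcript, chr17:29175570-29177719, the exon first and the window at the intron's end. Srsf2 had the same order, with its poison exon at chr11:116712962-116713065 inside the intron chr11:116712276-116713334 on the minus strand. In Srsf6 the leading window, chr2:162759062-162759161, ends where the next exon after the poison exon chr2:162758551-162758818 begins, and the gene's most crosslinked position, with 17 RBM10 and 0 IgG crosslinks, is a C inside that poison exon. Srsf11, the remaining member with poison exons, differed. Its leading window opens an intron, chr3:157685915-157689688 on the minus strand, that holds both poison exons (chr3:157687087-157687195 and chr3:157686207-157686323) further on. The Srsf3 and Srsf2 windows also lie inside exons of retained-intron transcripts, which is why they count as exons of noncoding isoforms above. In Srsf5 and Srsf11 the most crosslinked position, inside the leading window, counts as such an exon too. The Srsf1 leading window held 331 RBM10 crosslinks and the gene's whole intron class 265, so part of that window counts as exonic above.

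The sequences below show where in these windows the crosslinks recurred. They are read from mm9, written 5' to 3' as in the RNA, and end at the 3' splice site, except that of Srsf11, which begins at a 5' splice site and was added after its values were seen. For Srsf1 the window shown, chr11:87862445-87862544, is the one that holds its most crosslinked position. Capitals mark bases crosslinked in all 4 RBM10 libraries.
Srsf3: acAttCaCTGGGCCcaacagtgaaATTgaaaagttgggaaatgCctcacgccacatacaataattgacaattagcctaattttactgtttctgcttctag
Srsf7: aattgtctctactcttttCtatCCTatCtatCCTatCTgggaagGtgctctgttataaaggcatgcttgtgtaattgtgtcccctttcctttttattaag
Srsf2: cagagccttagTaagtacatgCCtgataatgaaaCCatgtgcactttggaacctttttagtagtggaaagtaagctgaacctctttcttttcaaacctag
Srsf10: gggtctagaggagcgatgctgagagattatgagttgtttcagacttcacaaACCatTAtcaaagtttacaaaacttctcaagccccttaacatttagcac
Srsf1: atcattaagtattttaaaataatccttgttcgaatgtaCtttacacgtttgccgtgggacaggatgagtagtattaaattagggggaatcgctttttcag
Srsf11: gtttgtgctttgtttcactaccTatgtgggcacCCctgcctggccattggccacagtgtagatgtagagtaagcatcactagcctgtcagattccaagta
In each of the 5 windows at a 3' splice site the capitals stop short of the stretch next to the splice site. Srsf3 has 13 such bases, Srsf7 has 11, Srsf2 and Srsf10 have 5 each, Srsf11 has 3 and Srsf1 has 1. The Srsf10 intron, chr4:135414325-135417688, begins with AT and ends with AC, the ends of a class of introns handled by the minor spliceosome, while the introns of the other five begin with GT and end with AG.

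Across the family's 3' windows the RBM10 crosslinks lay at a median of 73, 71, 71 and 69 nt from the splice site, counting the last intron base as 1. Of 4194 RBM10 crosslinks, 93.6% lay more than 40 nt away, a crosslink in overlapping windows being counted in each. The leading windows of Srsf3 and Srsf7 gave 821 and 584 of these. Windows end at 100 nt, so crosslinks farther away, such as those at the most crosslinked position of Srsf4 (102 nt), are left out. The IgG crosslinks in the 3' windows were 195 in all, 48.2% of them more than 40 nt away. Their medians were 46, 32, 28 and 83.5 nt, the last from 8 crosslinks. The most crosslinked single position was in Srsf3, a G at position 29177630 of chromosome 17, 90 nt before the splice site, with 33, 52, 82 and 8 RBM10 crosslinks and 1 IgG crosslink. Over the whole family the next was a C in Srsf10 (position 135417641 of chromosome 4, 48 nt before the splice site, 90 against 0 crosslinks), followed by 4 further positions of Srsf3 with 78 to 89 RBM10 crosslinks. The most crosslinked positions of other members were a C in Srsf2 (66 nt, 71 against 1), a C in Srsf7 (68 nt, 65 against 0) and a C in Srsf1 (62 nt, 63 against 0). That of Srsf11, a C 34 nt past the 5' splice site, had 63 RBM10 and 2 IgG crosslinks.

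**Figure D3:**
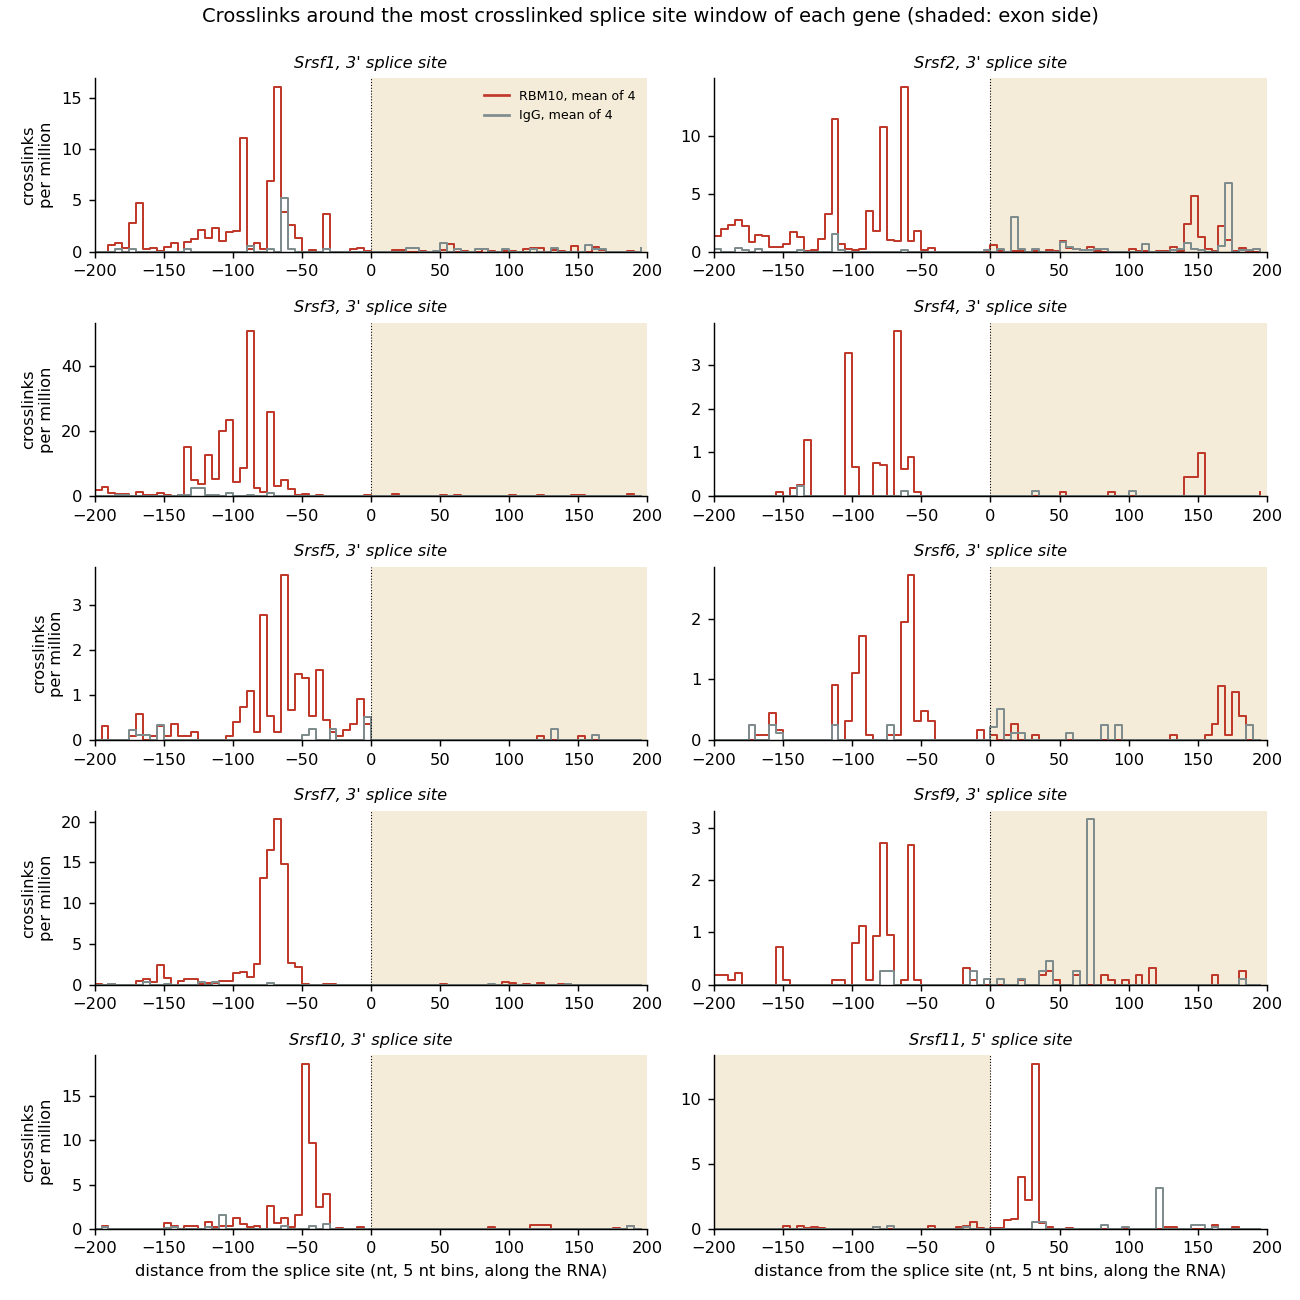
Mean crosslinks (CPM) of the 4 RBM10 (red) and 4 IgG (grey) libraries in bins of 5 nt within 200 nt of the splice site of each gene's most crosslinked window, along the RNA, each panel with its own y axis. Shading marks the side past the splice site where the exon begins, which may run beyond the exon's far end; the red peaks lie on the intron side, away from the site.

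In all, 106 positions of the family were crosslinked in all 4 RBM10 libraries and 0 in all 4 IgG libraries, of which replicates 3 and 4 are far shallower. Of these 106, 53 lay in exons of noncoding isoforms, 29 in introns, 20 in other exonic sequence and 4 in coding sequence, and 85 had no IgG crosslink. They were spread unevenly, with 33 in Srsf3, 19 in Srsf1, 17 in Srsf2, 12 in Srsf7, 9 in Srsf11 and 1 to 6 in each other member. The crosslinked base was C at 55 of them, T at 32, G at 13 and A at 6. Over all family crosslinks, C took 33.8, 31.0, 38.3 and 35.4% in RBM10 and 12.6, 10.6, 8.06 and 19.7% in IgG, where 19.6% of the family's bases are C. T took 41.1% ± 3.56 (SD, n = 4) in RBM10 and 61.7% ± 6.003 in IgG. Both separated the groups (exact permutation p = 0.0286, adjusted p = 0.0408), while A and G did not (exact permutation p = 0.143 and 0.400). Recurrent positions and crosslinked bases were not counted over all genes, and whether these values are particular to the family was not tested. Srsf2 lies wholly inside an opposite-strand gene, 1110005A03Rik, and Srsf1 and Srsf4 overlap opposite-strand transcripts. The opposite strand of the 10 genes held 11 RBM10 and 29 IgG crosslinks.

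RNA levels came next. In WT md cells the family summed to 2033, 2036 and 1970 TPM, with Srsf3 highest (456 ± 35.2 TPM, SD, n = 3), then Srsf1 (358 ± 12.3), Srsf2 (235 ± 9.78) and Srsf5 (222 ± 14.0), and Srsf4 lowest (38.3 ± 2.52). Between them stood Srsf9 (171), Srsf10 (169), Srsf6 (138), Srsf11 (126) and Srsf7 (100.4). In this order the ranges of neighbours overlapped for Srsf2 and Srsf5, for Srsf9 and Srsf10, and for Srsf6 and Srsf11. In parental ES cells, whose table was normalized separately, the family summed to 1399, 1430 and 1421 TPM. There Srsf5 was highest (296 ± 14.0), followed by Srsf1 (203 ± 9.85), Srsf11 (184 ± 6.44) and Srsf3 (173 ± 9.92), with Srsf4 again lowest (27.004 ± 1.07). The ranges of Srsf11 and Srsf3 overlapped, as did those of Srsf2 (132) and Srsf6 (125), and Srsf10 (159), Srsf7 (66.6) and Srsf9 (50.8) stood apart from their neighbours.

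No member passed the test in md cells, where 0% of 12090 genes were called higher and 0.0165% lower (limma on log2(TPM + 1), Benjamini-Hochberg). The KO lines summed to 1786, 2004, 2192 and 1439 TPM over the family. KO3 was above the WT range, KO2 within it, and KO1 and KO4 below it. Log2 differences of the 10 ran from -0.25 for Srsf7 to 0.01 for Srsf4, 9 of them below 0, with a median of -0.15 where that of all genes was 0.01. The lowest adjusted p was 0.791, for Srsf7, and none of the 10 had an unadjusted p under 0.05 (6.86% of all genes). Srsf1, for example, was at 308, 326, 402 and 244 TPM in KO1 to KO4 and at 364, 366 and 344 in WT. In 10 of 10 members the groups overlapped, where 6.33% of all genes had every KO line above WT and 4.38% every one below. The 2 lines deleted in exon 9 stood at the family's highest and lowest sums.

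In ES cells 9 of 10 members had a higher mean in the knockout, and the family summed to 1442, 1817 and 2033 TPM against 1399, 1430 and 1421. By limma with adjustment over 12860 genes 1 member was called, Srsf10, against 7.53% of all genes called higher and 4.73% lower. Srsf10 was at 184, 214 and 227 TPM in the knockout and 162, 158 and 158 in the parental line (log2 difference 0.38, SE 0.10, limma adjusted p = 0.0499). That p lies at the threshold, and alternatives took it from 0.00871 to 0.169. The call was lost without any 1 of KO replicates 2 and 3 or WT replicates 1, 2 and 3. Under quantile normalization it was lost too (0.0880), with calls over all genes then 719 higher and 838 lower, against 968 and 608.

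Members that did not pass nevertheless sat apart. The knockout was above the parental line without overlap in 6 members, Srsf1, Srsf2, Srsf4, Srsf7, Srsf10 and Srsf11 (23.8% of all genes), and 8 of 10 had an unadjusted p under 0.05 (34.1% of all genes). Srsf2 was at 156, 255 and 227 TPM against 141, 122 and 134 (log2 difference 0.65, SE 0.18, limma adjusted p = 0.0577). Srsf6 was at 122, 235 and 241 against 126, 126 and 122 (log2 difference 0.61, SE 0.25, adjusted p = 0.142). Its KO replicate 1 was as low as the parental samples. Srsf5, at 217, 200.7 and 284 TPM against 292, 311 and 284, was the 1 member with a lower mean (log2 difference -0.35, SE 0.14, limma adjusted p = 0.125).

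ES KO replicate 1 decides how many members are called. It had the lowest knockout value in 8 of the 10 members, and without it 7 were called by limma: Srsf1, Srsf2, Srsf4, Srsf6, Srsf7, Srsf10 and Srsf11, with log2 differences from 0.46 for Srsf10 to 0.93 for Srsf6. Calls over all genes then also rose, from 1576 to 3985. Cell type markers moved in the same libraries. Nanog, Esrrb and Klf4, of 8 markers, were called lower in the knockout (log2 differences -0.82, -1.19 and -0.68, limma adjusted p = 0.0229, 0.0232 and 0.0358), while Pou5f1, Tdgf1, Dppa5a, Sox2 and Zfp42 did not pass. Summed neural markers were lower without overlap, at 123 to 149.7 TPM against 165 to 209.9. Summed markers of exit from pluripotency (4.37 to 11.8 against 2.88 to 3.83 TPM) and of arch mesenchyme (4.43 to 8.68 against 3.17 to 3.73 TPM) were higher without overlap. Only 3 of 7 and 1 of 10 of these markers reached a mean of 1 TPM. Of the exit, arch and neural lists 2, 1 and 3 genes could be tested, and none was called. Among all genes the knockout lay above without overlap in 23.8% and below in 14.5%. The part of these markers in the family's levels was not tested. In bulk RNA, fewer cells of a type and less RNA per cell cannot be told apart.

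**Figure D4:**
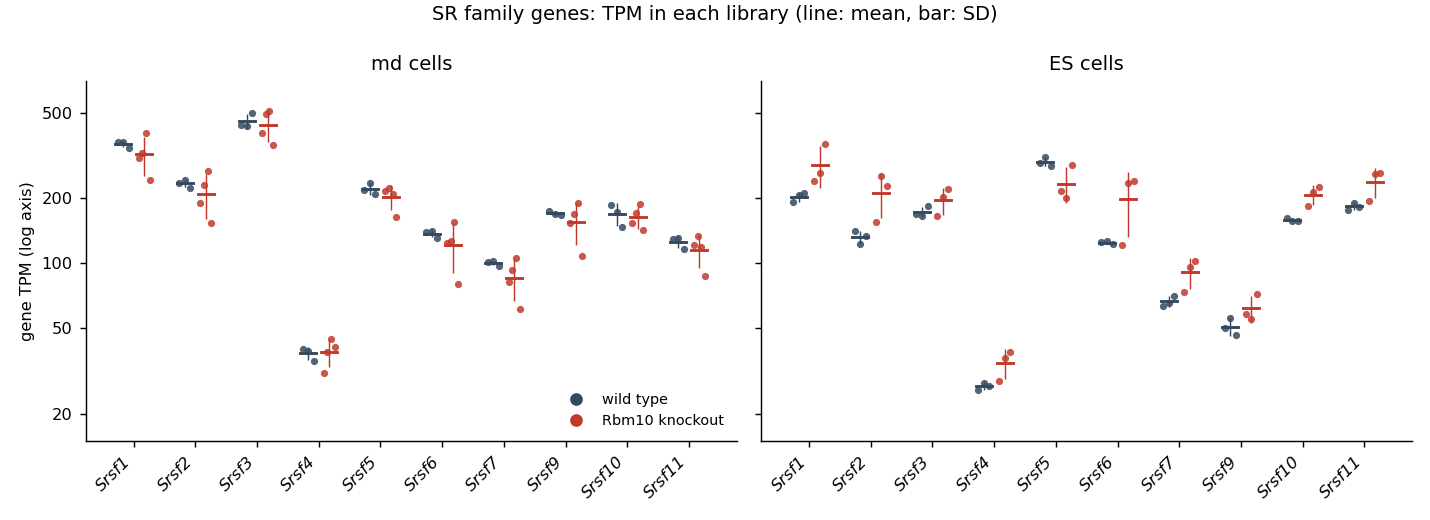
Gene TPM (log axis) of the 10 genes in each RNA library of md cells (left) and ES cells (right), wild type dark and knockout red, with a line at the mean and a bar for the SD. The md groups overlap in every gene, and in ES cells the knockout points of Srsf1, Srsf2, Srsf4, Srsf7, Srsf10 and Srsf11 all lie above the parental ones.

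The members split their RNA very differently between coding and noncoding isoforms. The noncoding share is the percent of a gene's TPM in transcripts not annotated as protein coding. In WT md cells it was 90.1% ± 0.944 (SD, n = 3) for Srsf3, 62.3% for Srsf10, 58.2% for Srsf9, 50.0% for Srsf1, 41.3% for Srsf6, 39.99% for Srsf4, 23.5% for Srsf5, 21.5% for Srsf11 and 4.198% for Srsf2. For Srsf7 only a coding transcript could be assigned. Whether RNA reads were counted by strand is not given in the sources used here, so RNA of Srsf1, Srsf2 and Srsf4 cannot be told from that of their antisense partners. These shares rest on the quantifier's assignment of reads to overlapping isoforms. In Srsf3 a retained-intron transcript held 74.3% of gene TPM in WT md cells and 2.47% in parental ES cells, and a transcript with the poison exon, annotated for nonsense-mediated decay, held 14.9% and 69.4%. The leading Srsf3 crosslink window lies within the first exon of that retained-intron transcript.

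None of the 9 members tested changed its noncoding share by limma in md or ES cells, where 0% of 4312 genes and 0.123% of 4059 genes were called higher and none lower. At an unadjusted p under 0.05 it was 0 of 9 in md cells (6.86% of all genes) and 2 of 9 in ES cells (10.5% of all genes), Srsf6 and Srsf4. Srsf6 had a noncoding share of 79.1, 81.1 and 79.3% in the ES knockout and 64.2, 66.2 and 71.6% in the parental line. The groups did not overlap, and the difference was 12.5 points (SE 2.16, limma adjusted p = 0.149). How many of all genes lacked overlap in this share was not counted. In md cells the share was 46.0, 44.2, 46.7 and 43.4% in the knockouts against 42.6, 43.0 and 38.2% (3.79 points, SE 2.28, limma adjusted p = 0.804). Srsf4 went the other way in ES cells, 12.8, 10.6 and 10.8% against 18.1, 22.1 and 19.4% (-8.47 points, SE 2.18, limma adjusted p = 0.258), while in md cells its groups overlapped. The difference between cell types was not tested, since the tables were normalized separately.

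Single transcripts gave no call by limma either, in 44 member transcripts tested in md cells and 41 in ES cells, where 0% of 25036 and 0.0269% of 22323 transcripts were called, in ES cells 0.0134% in each direction. An unadjusted p under 0.05 was seen for 2 of 44 (7.8% of all transcripts) and 8 of 41 (12.0%). In Srsf4 the main coding transcript, ENSMUST00000053819, held 86.5, 88.9 and 88.7% of gene TPM in the ES knockout and 80.7, 76.9 and 79.7% in the parental line (8.96 points, SE 1.59, limma adjusted p = 0.147). The retained-intron transcript of Srsf3, ENSMUST00000150157, held 5.89, 9.25 and 4.36% against 3.98, 1.31 and 2.12% in ES cells (4.03 points, SE 1.46, limma adjusted p = 0.358). In both the knockout lay above the parental line without overlap. Of the 8, 3 went the other way, also without overlap: the coding transcript of Srsf6, ENSMUST00000130411 (-12.5 points, limma adjusted p = 0.192), and the processed transcripts ENSMUST00000134943 of Srsf4 (-6.23 points, 0.308) and ENSMUST00000030438 of Srsf10 (-2.23 points, 0.417). All had an unadjusted p under 0.05, and how many of all transcripts lacked overlap was not counted, so the lack of overlap is a description.

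**Figure D5:**
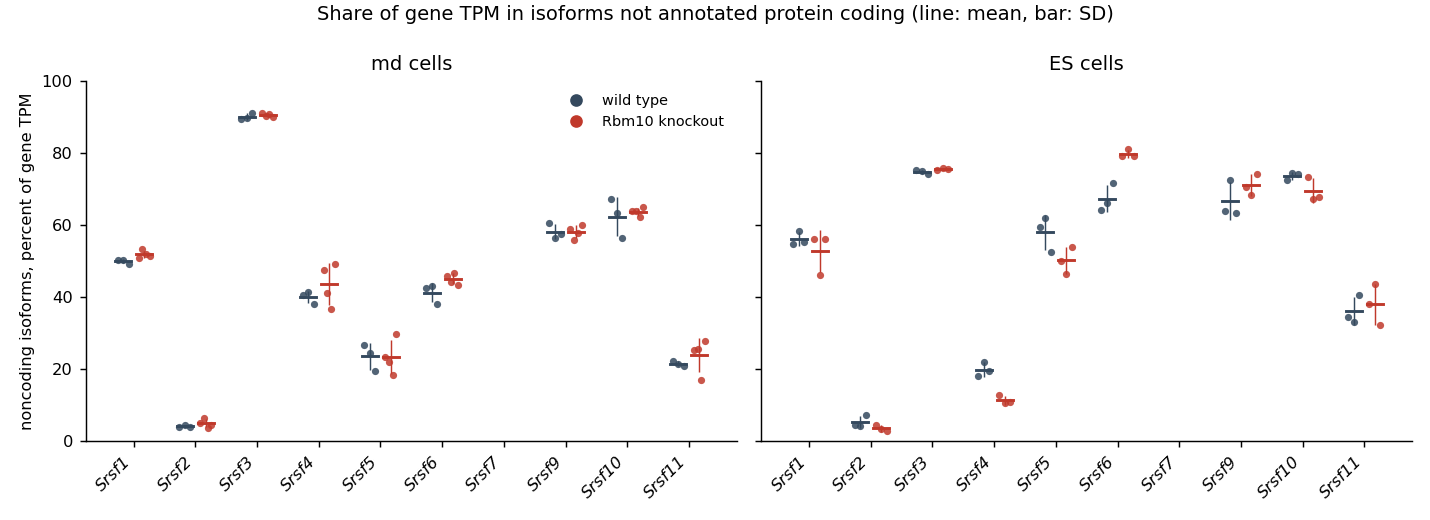
Percent of gene TPM in isoforms not annotated as protein coding (y axis) in each RNA library of md cells (left) and ES cells (right), wild type dark and knockout red, with a line at the mean and a bar for the SD. Knockout points of Srsf6 in ES cells lie between 79.1 and 81.1%, above all parental points, and Srsf7 has no assigned noncoding isoform.

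The annotation holds 12 cassette exons in the family, and 6 of them are poison exons by the rule used here: they overlap no coding sequence, noncoding transcripts include them and a coding transcript skips them. They lie in Srsf2, Srsf3, Srsf6 (2 that share a start) and Srsf11 (2). Inclusion (PSI) is the percent of TPM in transcripts that include the exon, of those that include or skip it. No poison exon was called by limma in either cell type, where 0.0173% of 5779 exons in md cells and 0.226% of 5305 exons in ES cells were called higher and 0% and 0.132% lower, in ES cells 0.358% either way. Of 6 poison exon measures tested, 0 in md cells and 2 in ES cells had an unadjusted p under 0.05, against 8.29% and 12.6% of all exons. The 268-base poison exon of Srsf6 had a PSI of 79.1, 81.1 and 79.2% in the ES knockout and 64.1, 66.0 and 71.5% in the parental line. The difference was 12.6 points (SE 2.84, limma adjusted p = 0.164). In md cells it was 45.9, 44.2, 46.7 and 43.4% against 42.6, 42.9 and 38.2%, also without overlap (3.78 points, SE 2.49, limma adjusted p = 0.752). Lack of overlap in PSI was not counted over all exons. A processed transcript, the 1 that includes it, gives Srsf6 nearly all of its noncoding share.

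The poison exon of Srsf3 differed by little between genotypes, at a PSI of 60.5% ± 0.938 (SD, n = 4) in md knockouts and 60.1% ± 1.15 (n = 3) in WT, and at 73.3% ± 0.539 and 73.3% ± 0.667 in ES cells (n = 3 each). The Srsf2 poison exon had a PSI of 0 in every library, and the shorter Srsf6 form was at or under 1.16%. In Srsf11 the 109-base exon, measured between the 117-base exon downstream and the next exon upstream, had a PSI of 32.1, 24.4 and 17.8% against 16.8, 14.0 and 8.91% in ES cells (11.5 points, SE 4.19, limma adjusted p = 0.344), and 53.1% ± 12.9 (SD, n = 4) against 49.8% ± 2.54 (n = 3) in md cells. Measured against the transcripts that also skip the 117-base exon, the difference was 1.89 points in ES cells. Its 117-base neighbour, measured in transcripts that hold the 109-base exon, was at 78.9% ± 12.6 and 71.4% ± 19.0 in md cells and 6.27% ± 3.60 and 2.81% ± 0.930 in ES cells. For the 117-base exon the groups overlapped in both cell types.

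Crosslinks at the poison exons were counted over each exon with 100 nt on either side. The longer Srsf6 window held 141 RBM10 and 22 IgG crosslinks, the shorter one, which shares most of its bases, 139 and 20, Srsf2 158 and 31, Srsf3 56 and 14, and Srsf11 142 and 21 at the 109-base exon and 83 and 8 at the other. Scaled to library totals, the pooled ratio was 2.91 (95% exact interval 1.85 to 4.79) for the longer Srsf6 window and 1.82 (0.997 to 3.53) for Srsf3. The test across windows gave no call for the 4 windows with enough crosslinks, with log2 differences of -0.46 to -0.05, against 29.4% of 218 windows called higher and 15.1% lower, or 44.5% either way. These signs depend on the scaling. Without TMM factors all 4 were positive (1.38 to 1.75) and called, and the median over all windows moved from 0.89 to 2.67 with calls of 167 higher and 9 lower, so no direction is given for them.

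Genes that act with the family were taken from 3 lists, chosen with earlier results of these data known. In md cells none of the 20, 14 and 13 tested genes of these lists was called by limma. In ES cells, where 7.53% of all genes were called higher and 4.73% lower, 1 of 20 related proteins with arginine and serine repeats was higher, a share no larger than that background. It was Rnps1, a splicing activator of the exon junction complex (77.6 ± 4.42 against 53.3 ± 5.37 TPM, SD, n = 3 each, log2 difference 0.54, limma adjusted p = 0.0269). Of 14 SR protein kinases, cyclins and import factors, 3 were higher, all kinases that phosphorylate SR proteins. Srpk1 was at 77.6 ± 5.98 against 47.0 ± 7.85 TPM (log2 difference 0.72, limma adjusted p = 0.0269). Clk2 and Clk3 had log2 differences of 0.50 and 0.56 (adjusted p = 0.0272 and 0.0384). Of 13 genes of nonsense-mediated decay and the exon junction complex none was called, and their median log2 difference was 0.01 beside 0.33 for the related proteins, 0.19 for the kinase list, 0.37 for the 10 members and 0.03 for all genes.

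In iCLIP the kinase list had 7 of 14 genes higher in RBM10 and 1 lower, the related proteins 5 of 20 and 0, and the decay list 4 of 12 and 1, against 20.4% and 17.0% of all genes (edgeR). The kinases Clk1, Clk2, Clk3 and Clk4 were all among the higher ones (log2 differences 0.65, 1.64, 1.21 and 0.75), as were Ccnl2 (1.79), a cyclin, Cdk11b (1.14) and Dyrk1b (1.59), while Dyrk1a was lower (-0.85). Of the related proteins Rnps1 had a log2 difference of 1.51, Luc7l3 0.80, Scaf4 0.82, Scaf1 0.64 and Luc7l 0.57. Of the decay genes Smg5 was at 1.55, Upf1 at 0.91, Casc3 at 0.70, Smg1 at 0.62 and Smg6 at -0.63.

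The family's mean level, as the mean log2(TPM + 1) of the 10 members centred within each cell type, ran from -0.39 in md KO4 to 0.19 in md KO3 and from -0.19 in ES WT replicate 1 to 0.38 in ES KO replicate 3. Of 10548 other genes, those whose centred levels followed it most closely over the 13 libraries were Aimp2 (Pearson r = 0.976), Bag2 (0.964), Nup50 (0.962), Tyw3 (0.961) and Cd3eap (0.960). These values are a description, over libraries that share their cell lines and tables.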

How the data were processed

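Crosslink positions of 8 iCLIP libraries were deposited as counts per base and strand, and RNA levels as TPM per transcript in 1 table for md and 1 for ES cells, each made by the authors. The submitters' processing notes name the builds mm9 and mm10 without their roles. Aligner, quantifier, strandedness, barcode use and the handling of repeated sequence are named in no source used here. Crosslink coordinates fit mm9, and annotation and sequence came from GENCODE vM1 on that build. Of 100249 transcripts, 84877 (84.7%) were matched by identifier, holding 90.3 to 91.5% of md and 85.5 to 87.5% of ES TPM. No value column was left unmapped (0).

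Transcripts were summed to genes. Genes needed 1 TPM or more in 3 or more libraries. Their log2(TPM + 1) and isoform shares and PSI were tested with limma 3.58.1. Shares needed a mean gene TPM of at least 5. A fold change on this scale understates that of low genes. Same-strand crosslinks per gene, gene region and window were tested with edgeR 4.0.16 (quasi-likelihood, TMM, genes filtered by expression), with DESeq2 1.42.0 as an alternative. Benjamini-Hochberg adjustment ran over all features, with calls at 0.05. Permutation tests and tables used Python 3.11.15 and scipy 1.17.1 with R 4.3.3. Tests were two-sided.

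Each RBM10 library had its own IgG control, per the labels, so iCLIP numbers pair the libraries. The correlations of deviations within same-numbered pairs were 0.067, 0.144, 0.027 and 0.083. Between libraries with different numbers they ran from -0.142 to 0.099. On simulated crosslinks per gene, 84.1% of genes with a log2 change of 2 were recovered and 0.585% of those with a change of 1. Those counts had 1 dispersion for all genes, and for the change of 1 only 171 of 9263 genes were changed. The real fit called 37.4% of all genes, among them Srsf5 and Srsf11 at 0.64 and 0.65, so the simulated shares do not give its power. For TPM with a log2 change of 1 it was 44% in md and 69% in ES cells.

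Members, lists and named features were chosen with earlier results of these data known. Every member was named in every readout, with its most crosslinked position and window. Splice-site windows of introns of at least 50 nt with at least 10 crosslinks, the family shares by window and base, and the permutation within pairs were chosen after seeing the data. Alternatives varied the pseudocount, filters, scaling, share scale, isoform classes, flank length, replicate block and the libraries kept.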

Additional observations from a re-analysis of the deposited data

Results flagged for a closer look

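Of 62 groups of 4 libraries examined, 3 had 1 library far from the others relative to the group's range, where chance gives about 1 in 20. Srsf4 had 140.2 CPM, crosslinks scaled to the library total, in RBM10 replicate 3, and the other RBM10 libraries lay between 127.4 and 129.1. IgG replicate 3, with 124 crosslinks over the family, stood apart in both other cases. Its coding sequence held 8.06% of family crosslinks, with the other controls between 13.5 and 14.5%. Adenine was the crosslinked base in 5.65% there, with the other controls between 11.9 and 12.2%.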

How the results depend on the processing

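In ES cells the 1 called member became 0 with a pseudocount of 0.1, with no filter on low values, under quantile normalization and with the replicate block, and ran from 0 to 7 when 1 library was left out. Numbers of ES samples mark no shared origin in the labels. Over all genes the ES calls were 1576, against 774 with no filter, 422 with the replicate block and 21 to 3985 with 1 library left out. In md cells they were 2, against 6 with no filter and 0 with the pseudocount of 0.1, at least 5 TPM or the block, which has no WT partner for KO4. Calls over all features for noncoding shares in ES cells were 5, against 1 with a gene TPM of at least 1 or the block. Those for ES transcript shares were 6, against 30 on the logit scale and 0 with the block, and for PSI 19, against 32 and 0. In md cells the logit scale gave 3 transcript shares and 5 exons, against 0 and 1, and the block gave 0 exons.

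In iCLIP the 5 called genes became 4 with the replicate block and 3 to 6 with 1 library left out, and the 10 called regions became 9 with the block. Apart from the Srsf5 gene and the Srsf2 coding sequence, the block ended no call of a gene or region. Windows at 3' splice sites went from 30 to 24 with the block, 0 with pairs 1 and 2 alone and 14 to 31 with 1 library left out. Those at 5' splice sites went from 10 to 7, 0 and 3 to 11. Over all genes the share of windows called higher went with the block from 66.5 to 51.0% at 3' splice sites and from 54.3 to 39.0% at 5' splice sites. Poison exon windows went from 0 called to 4 without TMM factors and 1 with DESeq2, and with the block to 0. Over all such windows 97 calls became 176, 491 and, with the block, 37. With at least 10 crosslinks they were 462, with each position once 64, with pairs 1 and 2 alone 182 and with 50 nt flanks 50.

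These directions reversed, all for results not called in the fit reported above, and the cause was not tested. Without TMM factors all 4 poison exon windows were called in the reversed direction. Poison exon windows in the order no TMM factors, DESeq2, at least 10 crosslinks, each position once and replicate block gave 1.75, 1.36, 1.14, 0.54 and 0.27 for the shorter Srsf6 form. The longer form gave 1.63, 1.24, 1.02, 0.35 and 0.15, and 1.37 with 50 nt flanks. Srsf2 gave 1.38, 1.01, 0.68, 0.014 and 0.17. Srsf11 gave 1.45, 1.11, 0.96 and 0.092 in the first 4 settings. With 1 library left out they ran from -0.36 to 0.76, -0.48 to 0.53, -0.86 to 1.15 and -0.59 to 0.37. Crosslinks per gene with each position once gave -0.024 for Srsf1 and -0.30 for Srsf10, which gave -0.022 with pairs 1 and 2 alone and -0.020 to 0.25 with 1 library left out. In md gene levels the replicate block gave 0.018 for Srsf10, -0.020 for Srsf4, 0.00056 for Srsf9 and 0.030 for Srsf3, and quantile normalization gave -0.0089 for Srsf4. Leaving out 1 library gave -0.14 to 0.029, -0.059 to 0.11, -0.26 to 0.00056 and -0.14 to 0.030 for these 4.

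Noncoding shares in md cells, counting decay transcripts alone or without retained introns, gave -0.45 points for Srsf1 and -0.56 for Srsf3, with -2.04 for Srsf3 in ES cells. The block gave -0.63 for Srsf9. Leaving out 1 library gave -2.34 to 1.502 for Srsf5, -1.56 to 3.83 for Srsf10 and -0.84 to 1.15 for Srsf9 in md cells, and -1.04 to 4.74 for Srsf11 in ES cells. PSI of the 117-base Srsf11 exon gave -0.027 on the logit scale and -1.02 with the block in md cells. With 1 library left out the md PSI differences ran from -0.15 to 1.01 for Srsf3 and, for the 4 Srsf11 measures, from -3.44 to 13.5, -1.02 to 2.25, -2.26 to 0.65 and -3.12 to 5.63. In ES cells they ran from -0.31 to 0.35 for Srsf3 and from -0.97 to 3.06 and -0.49 to 3.74 for 2 Srsf11 measures. IgG replicates 3 and 4, at 103017 and 157986 crosslinks, limit every ratio to the control.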
